A study of Mus musculus with 6 samples.

Results

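Nos2, Arg2, Slc7a2, Gch1, Ptgs2 and Ptges are the 6 genes described here, out of 8841 genes with a named probe on the array. They were taken by gene symbol from the platform's probe table, and each had 1 probe. Their mRNA was read on 6 single-colour arrays, each from total RNA of thioglycollate-elicited macrophages, cells drawn in by a sterile irritant, of female C57BL/6 mice aged 6 weeks. The 6 groups, with 1 array each, were TSA + GW3965 + LPS, GW3965 + LPS, TSA + LPS, LPS, TSA and No treatment. TSA stands for trichostatin A and blocks histone deacetylases. LPS, lipopolysaccharide from bacterial walls, activates macrophages through a Toll-like receptor. GW3965 is a synthetic ligand that activates liver X receptors, which are nuclear receptors for oxysterols. Both arrays with GW3965 also had LPS, and GW3965 without LPS is not analysed here. The labels give no dose, no time, and no word on pooling of mice or on separate cultures. With 1 array a group, the p-values below hold no measure of spread between replicates. They rest on how far genes depart from the additive model below. That model has 2 residual degrees of freedom, and 16.9 prior ones drawn from all genes tested.

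These genes encode the enzymes behind 2 families of small mediators that activated macrophages release. Nitric oxide is made from arginine by the inducible synthase Nos2, which depends on arginine carried in by Slc7a2 and on the cofactor tetrahydrobiopterin, whose synthesis Gch1 starts and limits. Arg2, the mitochondrial arginase, splits arginine to ornithine and urea and so draws on the same substrate. Prostaglandin E2 is made from arachidonic acid by the inducible cyclooxygenase Ptgs2 and then by Ptges, the microsomal prostaglandin E synthase that is induced along with it. In mouse macrophages Nos2 and Ptgs2 are textbook targets of NF-kB, and Arg2 has been described as a target of the liver X receptors.

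Values are the deposited intensities, which have no physical unit and a median close to 1 on every array (0.981 to 0.987). A value under an array's 25th percentile (0.198 to 0.245) was raised to it before taking log2, and a difference that uses such a value is a bound, written "at least". Treatment effects are from an additive limma model with terms for TSA, LPS and GW3965, fitted to 5080 genes on all 6 arrays. They are the mean log2 difference over 3 pairs of arrays for TSA and over 2 pairs each for LPS and GW3965. A gene is said to have risen or fallen where its p, adjusted by Benjamini-Hochberg over all 5080 genes, was under 0.05. All 6 genes entered the fit. The effects of the 3 agents are read from the same 6 arrays and so share them. Fits with 1 array left out have fewer residual degrees of freedom and took each gene's spread almost wholly from all genes. Whether a gene passes there thus mixes the loss of the array with that change. Across all probes, which do not count as replicates, rank correlations between arrays were 0.928 to 0.981. Of the 10 macrophage markers listed, 6 were on the array, none was under the median on all arrays, and their summed intensity was 972 with TSA + GW3965 + LPS, 1130 with GW3965 + LPS, 1234 with TSA + LPS, 1104 with LPS, 759 with TSA and 1065 with No treatment. Most of each sum was the 1 gene Lyz2, from 729 with TSA to 1050 with TSA + LPS. Much of the rest was Cd14, which read 351 with LPS against 29.2 with No treatment and fell with TSA. The sums are thus no plain count of macrophages. In such bulk RNA, fewer cells of a type and less RNA per cell cannot be told apart.

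**Figure D1:**
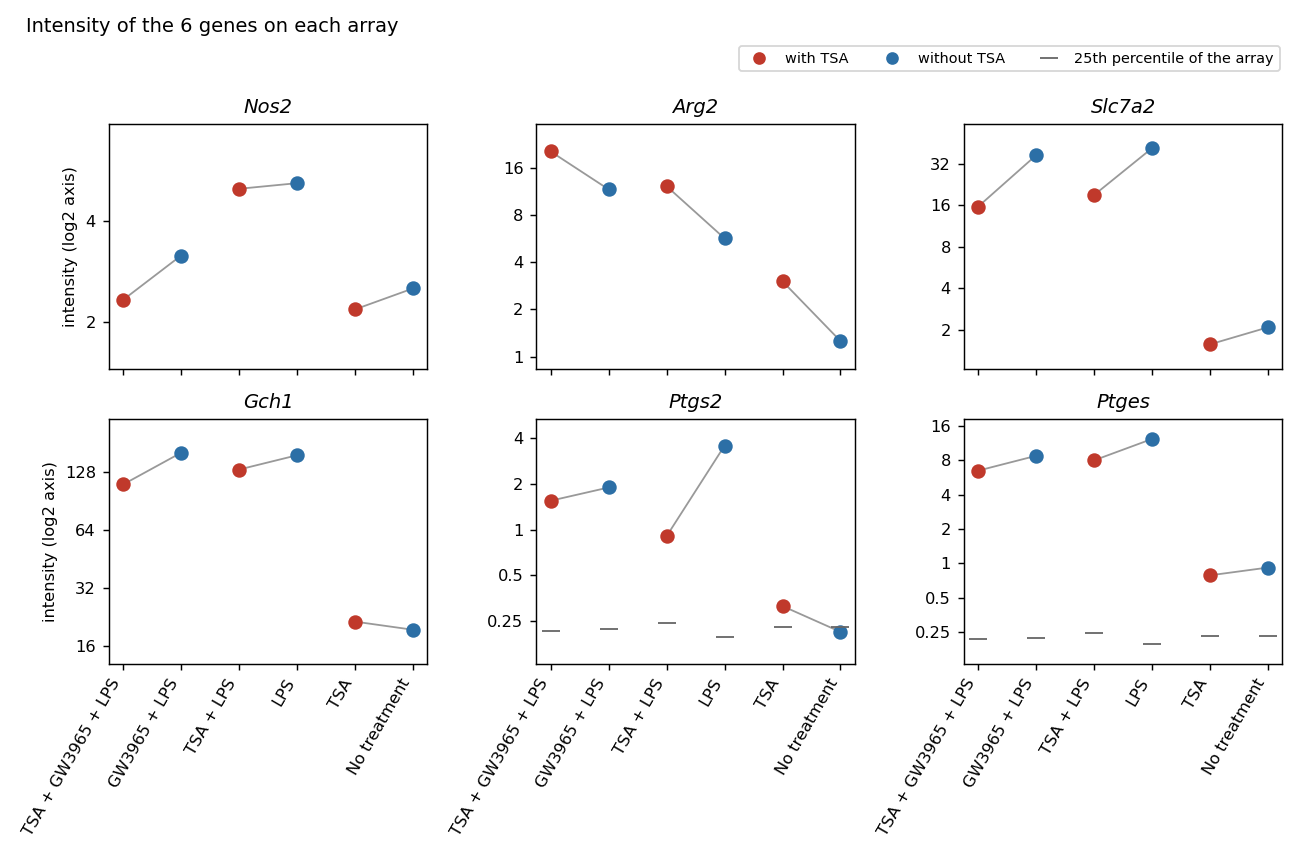
Deposited intensity (log2 axis) of each gene on the 6 arrays; red points are arrays with TSA, blue points arrays without it, grey lines join the 2 arrays of a TSA pair, and grey dashes mark the 25th percentile of each array where values come near it. In every panel the 4 arrays with LPS lie above the No treatment array, except the TSA + GW3965 + LPS array for Nos2 (2.33 against 2.52), and the red point is the higher of its pair for Arg2 in all 3 pairs.

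With LPS 6 of the 6 genes rose and 0 fell, where 12.3% of all genes tested rose and 7.11% fell. The steepest rises were in the arginine carrier Slc7a2 and the prostaglandin E synthase Ptges, and the shallowest was in Nos2. The members' median LPS effect was 2.78 on the log2 scale, against 0.03 over all genes tested. The 6 genes had been picked with their LPS response known, so the count describes them and supports nothing further. Over all genes limma called 626 up and 361 down with LPS, a split that became 543 and 557 after quantile normalization, which moved the median LPS effect of all genes to -0.11. Each member's rise was far larger than that shift. By size alone, with no test, 6 of 6 were at least 2-fold higher in LPS against No treatment, where 14.0% of measured genes were. In TSA + LPS against TSA it was 5 of the 5 measured, where 9.20% were.

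The sequences just before the start of transcription are shown for Ptgs2, Ptges and Gch1, because all 3 rose steeply with LPS and RefSeq promoter entries were at hand for them. Each run holds the 250 bases upstream of the RefSeq start (build GRCm38.p6), on the strand of the gene, and capitals mark any match on either strand to the motifs searched. For Ptges that start lies inside the annotated span of the gene (chr2:30889471-30931020), so it is not the outermost one. For Ptgs2 a further stretch of 24 bases, at positions 5 to 28 after the start, is shown with its E-box in capitals.
Ptgs2, chr1:150099781-150100030, plus strand: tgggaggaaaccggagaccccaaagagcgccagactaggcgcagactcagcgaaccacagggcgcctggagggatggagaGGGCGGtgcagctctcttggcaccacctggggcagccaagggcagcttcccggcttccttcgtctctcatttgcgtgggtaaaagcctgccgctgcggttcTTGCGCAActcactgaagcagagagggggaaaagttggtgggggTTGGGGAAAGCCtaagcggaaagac
Ptges, chr2:30903298-30903547, minus strand: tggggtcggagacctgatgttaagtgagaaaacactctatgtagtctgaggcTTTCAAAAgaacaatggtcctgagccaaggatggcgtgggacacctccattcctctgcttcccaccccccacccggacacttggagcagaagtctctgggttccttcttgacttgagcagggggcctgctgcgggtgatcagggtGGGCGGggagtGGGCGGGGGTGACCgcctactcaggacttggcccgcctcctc
Gch1, chr14:47189414-47189663, minus strand: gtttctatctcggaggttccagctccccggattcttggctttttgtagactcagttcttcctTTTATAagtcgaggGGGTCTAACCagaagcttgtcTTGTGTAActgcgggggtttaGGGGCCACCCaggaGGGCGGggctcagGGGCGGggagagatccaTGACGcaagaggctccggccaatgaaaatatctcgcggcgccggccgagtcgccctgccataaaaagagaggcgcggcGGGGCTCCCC
Ptgs2, chr1:150100035-150100058, plus strand: tcaccactacgtCACGTGgagtcc

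The search covered 300 bases, from 250 before to 50 after the start, on both strands, and the shares given are of all 32851 such windows in the RefSeq table. All 3 genes held the loose NF-kB pattern of GGG and CC with any 5 bases between them, which 50.8% of all windows hold. All 3 also held the C/EBP pattern TTNNGNAA (40.7% of windows) and the GC box GGGCGG (35.7%). At these shares a match says little by itself. The matches of Ptgs2 included the C/EBP match TTGCGCAA at -69 to -62 and the NF-kB match GGGGAAAGCC at -23 to -14, which overlaps another C/EBP match at -25 to -18. The E-box CACGTG was found in Ptgs2 at 17 to 22, overlapping a CRE half-site (TGACG, read on the other strand as CGTCA) at 14 to 18; 7.15% of windows hold the E-box and 20.8% the half-site. Gch1 held a CRE half-site at -88 to -84 and a TATAAA on the strand opposite the gene at -188 to -183 (13.6% of windows). No match to the AP-1 pattern TGANTCA (7.81% of windows) or the ISRE core, GAAA on each side of any 2 bases (3.44%), was found in the windows of these 3 genes.

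Slc7a2, a cationic amino acid carrier that brings arginine into the cell, had the steepest LPS response. It read 41.5 with LPS against 2.08 with No treatment, a 19.98-fold difference, and 19.0 with TSA + LPS against 1.56 with TSA, a 12.1-fold difference. The LPS effect was 3.96 (SE 0.27, limma adjusted p = 1.36e-09, higher in 2 of 2 pairs). With TSA it fell, and each of the 3 pairs was lower. It read 15.6 with TSA + GW3965 + LPS against 36.8 with GW3965 + LPS, 19.0 with TSA + LPS against 41.5 with LPS, and 1.56 with TSA against 2.08 with No treatment. The 4 LPS arrays thus stood at 2 levels, lower with TSA than without, while the 2 arrays without LPS stood far below both. The mean TSA difference was -0.93 (SE 0.22, limma adjusted p = 0.00805, lower in 3 of 3 pairs), 1.90-fold lower. Without either array with GW3965 that call did not hold, and without the TSA + GW3965 + LPS array the effect was -0.77.

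Nos2, the inducible nitric oxide synthase, had the smallest LPS effect of the 6. It read 5.17 with LPS against 2.52 with No treatment and 4.98 with TSA + LPS against 2.18 with TSA, 2.06-fold and 2.28-fold higher. The LPS effect was 1.12 (SE 0.26, limma adjusted p = 0.00422, higher in 2 of 2 pairs). Without the No treatment array the adjusted p was 0.0641. TSA left a small and unresolved difference, with a mean of -0.23 (SE 0.22, limma adjusted p = 0.497) and a 95% interval of -0.68 to 0.22. The interval does not reach a 2-fold change in either direction, but it holds no spread between replicates and so sets no firm bound. Between arrays with and without GW3965 the readings were farther apart: 2.33 with TSA + GW3965 + LPS against 4.98 with TSA + LPS, and 3.15 with GW3965 + LPS against 5.17 with LPS. Both arrays with GW3965 read lower than both LPS arrays without it, and the TSA + GW3965 + LPS array read below the No treatment array.

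Gch1, the enzyme that starts tetrahydrobiopterin synthesis, rose with LPS and did not pass for TSA. It read 157 with LPS against 19.4 with No treatment, 8.10-fold higher, and 132 with TSA + LPS against 21.4 with TSA, 6.19-fold higher. The LPS effect was 2.82 (SE 0.25, limma adjusted p = 4.09e-08). The 4 arrays with LPS lay between 111 and 162 and the 2 without it at 21.4 with TSA and 19.4 with No treatment. In Slc7a2, Arg2, Ptgs2 and Ptges too, each array with LPS read above both without it. The share of all genes with this split was not counted. For genes picked with their LPS response known, the split is a description only. With TSA, Gch1 was 1.46-fold lower under GW3965 + LPS, 1.19-fold lower under LPS and 1.10-fold higher without LPS, and the mean of -0.22 (SE 0.20, limma adjusted p = 0.497) did not pass. Of the other tetrahydrobiopterin genes, Pts and Spr, which carry the pathway on from the product of Gch1, did not pass for LPS, with effects of -0.27 and -0.14. Gch1, picked with its LPS response known, was the 1 of 4 tested genes of that list to rise with LPS. With TSA 0 of the 4 were called. Of all genes tested, 12.3% rose with LPS, and 11.0% rose and 7.54% fell with TSA.

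Arg2, the mitochondrial arginase, was the 1 gene of the 6 that rose with TSA. It read 20.5 with TSA + GW3965 + LPS against 11.7 with GW3965 + LPS, 12.3 with TSA + LPS against 5.70 with LPS, and 3.03 with TSA against 1.26 with No treatment. Each TSA array read higher than its partner, and the highest of the 6 values was on the array that held all 3 agents. The mean TSA difference was 1.06 (SE 0.21, limma adjusted p = 0.00212, higher in 3 of 3 pairs), 2.09-fold. With LPS it rose by 2.10 (SE 0.26, limma adjusted p = 4.66e-06, higher in 2 of 2 pairs), from pairs of 4.54-fold and 4.06-fold. Both calls held under all 8 other settings and with any 1 array left out; the TSA effect then ran from 0.96 to 1.19. Arg1, the cytosolic arginase known from alternatively activated macrophages, read 0.477 to 0.893 on the 4 arrays with LPS, and 1.33 with TSA and 1.34 with No treatment. Its LPS effect of -0.89 (SE 0.36, limma adjusted p = 0.0894) and its TSA effect of -0.03 did not pass, and the difference between the 2 arginases was not tested. The summed intensity of 9 neutrophil markers on the array was 75.0 with TSA + GW3965 + LPS against 53.3 with GW3965 + LPS, 83.6 with TSA + LPS against 52.9 with LPS, and 38.9 with TSA against 25.03 with No treatment, higher in each TSA pair and with LPS, as Arg2 was. Most of that sum was the 1 gene S100a8, at 71.2 with TSA + GW3965 + LPS against 49.2 with GW3965 + LPS, 78.8 with TSA + LPS against 47.2 with LPS, and 31.8 with TSA against 22.0 with No treatment. Of these 9 markers, Elane, Mpo, Ngp and Cxcr2 were under the median on all arrays. Among the 5 tested, 2 (S100a8 and Prtn3) rose and 1 (Csf3r) fell with TSA, beside 11.0% and 7.54% of all genes. With LPS 2 (S100a8 and Camp) rose and 1 (Ltf, by 1.34) fell, beside 12.3% and 7.11% of all genes. Summed markers were 14.7 to 16.5 on the 5 treated arrays and 9.79 with No treatment for fibroblasts and mesothelium, 8.91 to 11.9 for B and T cells, and 19.5 to 27.1 for mast cells and eosinophils. The part of these markers' cells in the differences of the 6 genes was not tested.

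Ptgs2, the inducible cyclooxygenase, was near background without LPS, at 0.315 with TSA and 0.213 with No treatment, and the No treatment value lay under that array's 25th percentile. It read 3.56 with LPS, at least 15.6-fold above No treatment, and 0.905 with TSA + LPS against 0.315 with TSA, 2.88-fold higher. The LPS effect was 2.74 (SE 0.42, limma adjusted p = 6.83e-05); without the LPS array it was 1.71, without the TSA + LPS array 3.78, and with values floored at the median instead it did not pass (0.92, limma adjusted p = 0.198). For TSA the 3 pairs of Ptgs2 were far apart. It read 1.55 with TSA + GW3965 + LPS against 1.89 with GW3965 + LPS, 1.22-fold lower, and 0.905 with TSA + LPS against 3.56 with LPS, 3.93-fold lower. Without LPS the TSA value was at least 1.38-fold higher, with neither array at its median. The mean was -0.60 (SE 0.35, limma adjusted p = 0.249, lower in 2 of 3 pairs). The LPS and TSA + LPS arrays decided its sign: without either, the mean was 0.09. Without the No treatment or the TSA array the mean was -1.13.

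Ptges, the synthase that turns the product of Ptgs2 into prostaglandin E2, read 12.3 with LPS against 0.918 with No treatment, 13.4-fold higher, and 8.01 with TSA + LPS against 0.784 with TSA, 10.2-fold higher. The LPS effect was 3.55 (SE 0.26, limma adjusted p = 3.81e-09). With TSA it was lower in 3 of 3 pairs. It read 6.50 with TSA + GW3965 + LPS against 8.77 with GW3965 + LPS and 8.01 with TSA + LPS against 12.3 with LPS. Without LPS it was 1.17-fold lower with TSA, with neither array at its median. The mean of -0.43 (SE 0.21, limma adjusted p = 0.177, 95% interval -0.87 to 0.02) did not pass. Its 4 arrays with LPS lay between 6.50 and 12.3, and the 2 without at 0.784 with TSA and 0.918 with No treatment.

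**Figure D2:**
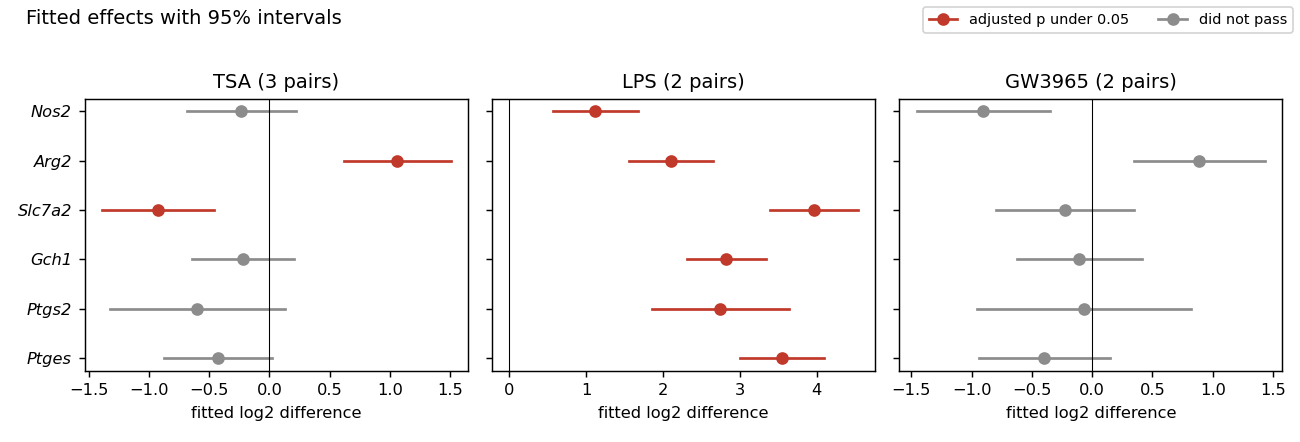
Fitted log2 difference of each gene with TSA, LPS and GW3965 (points) and its 95% interval (lines) from the limma fit on 6 arrays; red marks an adjusted p under 0.05 and grey the rest. All 6 LPS effects are red and positive, Arg2 at 1.06 and Slc7a2 at -0.93 are red for TSA, and all GW3965 effects are grey.

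With TSA, then, 1 of the 6 genes rose, 1 fell and 4 did not pass, beside 11.0% of all genes rising and 7.54% falling, and the members' median effect was -0.33 against 0.01 over all genes. The carrier that brings arginine in, Slc7a2, was the gene that fell, and the arginase Arg2 the gene that rose. By size alone, with no test, the pair TSA + LPS against LPS had 1 gene at least 2-fold higher (Arg2) and 2 at least 2-fold lower (Slc7a2 and Ptgs2), where 7.57% and 9.55% of all measured genes were so. The pair TSA + GW3965 + LPS against GW3965 + LPS had 0 higher and 1 lower (Slc7a2), where the shares were 4.83% and 1.13%. In the pair TSA against No treatment, 1 of the 4 genes measured there was higher (Arg2) and 0 were lower, with shares of 6.98% and 4.69%.

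**Figure D3:**
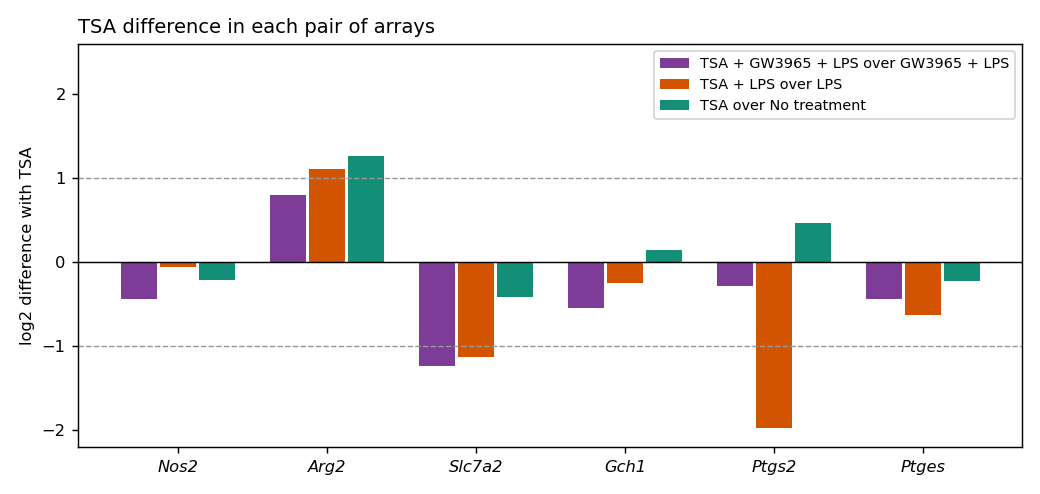
log2 difference with TSA in each of the 3 pairs of arrays, 1 bar per pair and gene; dashed lines mark a 2-fold change, and the bar of Ptgs2 for TSA over No treatment is a lower bound. Arg2 is above 0 in all 3 pairs, Slc7a2, Nos2 and Ptges are below 0 in all 3, and the Ptgs2 bars run from -1.98 to 0.46.

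Whether the TSA difference itself changed with LPS was tested with an added TSA by LPS term, which limma called for 0.236% of all genes (12 of 5080) and for 0 of the 6, with 1 of the 6 (Ptgs2) at an unadjusted p under 0.05. For Ptgs2 the TSA difference with LPS minus that without LPS was -1.60 (SE 0.65, limma adjusted p = 0.667), with a 95% interval of -2.86 to -0.33. For Slc7a2 it was -0.77 (SE 0.47, limma adjusted p = 1), with an interval of -1.69 to 0.15, so it was not shown that the TSA difference was smaller without LPS. A TSA by GW3965 term, added after the data were seen, was called for 0.0591% of all genes and 0 of the 6, with none at an unadjusted p under 0.05. For Ptgs2 it stood at 0.47 (SE 0.61, limma adjusted p = 0.999). The fits with an added term took each gene's spread almost wholly from all genes tested. Their intervals and p-values thus do not stand on the same footing as those of the main effects.

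With GW3965 on top of LPS, limma called 0 of the 6 genes, beside 0.0787% of all genes tested (4 of 5080). The largest differences were in Nos2 and Arg2, in opposite directions. Nos2 had a GW3965 effect of -0.91 (SE 0.26, limma adjusted p = 0.584, lower in 2 of 2 pairs) and a 95% interval of -1.46 to -0.35. Arg2 had 0.89 (SE 0.26, limma adjusted p = 0.584, higher in 2 of 2 pairs), from readings of 20.5 with TSA + GW3965 + LPS against 12.3 with TSA + LPS and 11.7 with GW3965 + LPS against 5.70 with LPS. These 2 of the 6 had an unadjusted p under 0.05 and failed the correction over all genes. For Slc7a2, Gch1, Ptgs2 and Ptges the GW3965 effect lay between -0.40 and -0.07. In single pairs, 1 gene (Arg2) was at least 2-fold higher in GW3965 + LPS against LPS, where 0.476% of all measured genes were, and 1 (Nos2, 2.14-fold) was at least 2-fold lower in TSA + GW3965 + LPS against TSA + LPS, where 0.577% were.

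With 1 array a group, the residual spread of the fit, a departure from the additive model, was the only scale at hand for neighbouring levels. The limit below is for a pair fixed beforehand. The steps came from sorting each gene's own values, with no correction for their number, so they are a description. For a single pair of arrays a step had to exceed 1.71-fold for Arg2 and Ptges, 1.72-fold for Nos2, 1.75-fold for Slc7a2, 1.66-fold for Gch1 and 2.39-fold for Ptgs2 to pass a 95% limit. Arg2 climbed in the order No treatment, TSA, LPS, GW3965 + LPS, TSA + LPS and TSA + GW3965 + LPS, and the first 3 of its 5 steps were beyond that limit. Slc7a2 climbed in the order TSA, No treatment, TSA + GW3965 + LPS, TSA + LPS, GW3965 + LPS and LPS, with the steps from No treatment to TSA + GW3965 + LPS and from TSA + LPS to GW3965 + LPS beyond it. For Gch1 and Ptges the 1 step beyond it was that between the arrays without and with LPS. For Ptgs2 it was the step between TSA and TSA + LPS, and for Nos2 no neighbouring pair was beyond it.

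**Figure D4:**
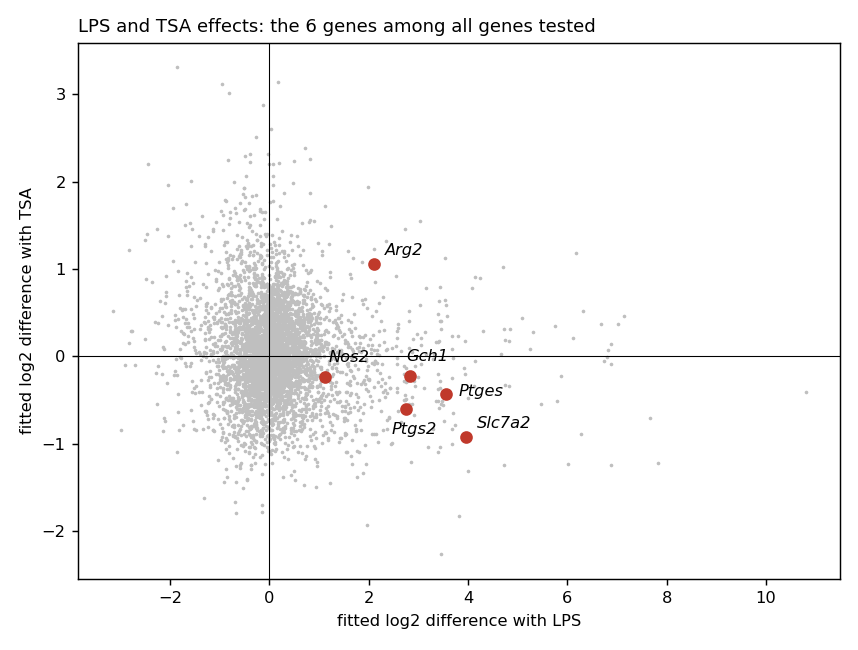
Fitted log2 difference with TSA (vertical) against that with LPS (horizontal) for the 5080 genes tested (grey) and the 6 genes (red, named). All 6 lie right of 0 on the LPS axis; Arg2 stands above the horizontal line and Slc7a2 lowest of the 6.

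The genes whose pattern over the 6 arrays was most like each member's were read from 2516 genes that spanned at least 1 on the log2 scale. Slc7a2 was followed most closely by the LPS co-receptor Cd14 (Pearson r = 0.999), the interleukin 12 subunit Il12a (0.998) and the nucleic acid sensor Zbp1 (0.997). Gch1 was followed by the chemokines Ccl3 (0.999) and Cxcl16 (0.999) and by Fv1 (0.999). Ptges was followed by Ccdc86 (0.999), the prostaglandin D synthase Ptgds (0.999) and the amino acid oxidase Il4i1 (0.999). Ptgs2 was nearest to Snap23, a membrane fusion protein (0.998), Atad2b (0.995) and Tmem248 (0.995). Arg2 was nearest to the histone variant gene H3f3a (0.994), the thioredoxin-like Txnl1 (0.993) and Fcf1 (0.982). Nos2 had the loosest neighbours, with the glutamate carrier Slc25a22 at 0.941, Dcakd at 0.919 and Lhx4 at 0.914. Among the 6 genes themselves Gch1 and Ptges were closest (0.993) and Nos2 and Arg2 farthest apart (0.268). All these correlations rest on 6 arrays that share the LPS contrast, and are a description with no test.

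The arginine and polyamine list includes Nos2 and Arg2. Of its 22 genes on the array 15 were tested; 3 rose with LPS (Arg2, Nos2 and Ass1) and 0 fell, while with TSA 2 rose (Arg2 and Oaz2) and 4 fell (Odc1, Srm, Oat and Prmt1). Over all genes tested 12.3% rose and 7.11% fell with LPS, and 11.0% rose and 7.54% fell with TSA, so 3 of 15 for LPS is near the background. The median effect of the 15 was -0.04 for LPS and -0.03 for TSA, against 0.03 and 0.01 over all genes tested. Ass1, which rebuilds arginine from the citrulline that nitric oxide synthases release, rose by 1.63 with LPS (SE 0.32, limma adjusted p = 0.000821). Its LPS reading of 23.4 stood apart from 9.44 with TSA + LPS, 7.19 with GW3965 + LPS and 7.68 with TSA + GW3965 + LPS, against 5.19 with TSA and 4.46 with No treatment. Below arginase, the ornithine aminotransferase Oat fell with TSA by 0.93, the ornithine decarboxylase Odc1 by 0.91 and the spermidine synthase Srm by 1.40 (limma adjusted p = 0.00831, 0.0223 and 0.00176, each lower in 3 of 3 pairs). Oaz2, an antizyme that restrains ornithine decarboxylase, rose by 0.61 (limma adjusted p = 0.0479). The arginine methyltransferase Prmt1 fell by 0.95 (limma adjusted p = 0.00652). Sms, the spermine synthase of the same line, named after its values were seen, was higher in 3 of 3 pairs with TSA but did not pass, at 0.54 (limma adjusted p = 0.0722).

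Of the 10 amino acid carriers on the array, 4 were tested. Slc7a2 and the cystine carrier Slc7a11 rose with LPS, Slc7a11 by 2.04 (SE 0.29, limma adjusted p = 2.84e-05), and Slc7a2 and Slc3a2 fell with TSA. Medians over the 4 were 1.28 for LPS and -0.75 for TSA. Beside these counts, 12.3% of all genes tested rose with LPS and 7.54% fell with TSA. Slc7a2 itself was picked with its LPS response known. Slc3a2, the heavy chain that several such carriers pair with, read 14.3 with TSA + GW3965 + LPS against 25.5 with GW3965 + LPS, 9.63 with TSA + LPS against 29.3 with LPS, and 6.29 with TSA against 21.9 with No treatment. Its TSA effect was -1.41 (SE 0.23, limma adjusted p = 0.000361). Slc7a1, another arginine carrier, was under the 25th percentile on 5 of 6 arrays and was not tested.

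Of 16 listed prostanoid enzymes and carriers on the array 13 were tested, and 4 rose and 3 fell with LPS, where 12.3% and 7.11% of all genes did. Of the 4, Ptgs2 and Ptges are among the 6 genes, picked with their LPS response known. Ptgs2, Ptges, Pla2g4a and Ptgds rose, and Cbr1, Hpgds and Pla2g6 fell. The median effect of the 13 was 0.16 for LPS and -0.13 for TSA. Pla2g4a, the cytosolic phospholipase that frees arachidonic acid, rose with LPS by 1.65 (SE 0.29, limma adjusted p = 0.000264) and with TSA by 0.89 (SE 0.24, limma adjusted p = 0.0139). It was the 1 gene of the 13 to rise with TSA, and 0 fell, beside 11.0% rising and 7.54% falling over all genes. It read 23.9 with TSA + GW3965 + LPS against 15.7 with GW3965 + LPS, 28.1 with TSA + LPS against 20.5 with LPS, and 13.4 with TSA against 4.37 with No treatment. So the phospholipase was higher in each TSA pair while Ptges was lower in each. Ptges did not pass for TSA (limma adjusted p = 0.177), and without LPS it was under the median on both arrays. Ptgds, a prostaglandin D synthase, rose with LPS by 1.26, and Hpgds, the hematopoietic one, fell by 1.11. The other prostaglandin E synthases, Ptges2 and Ptges3, had LPS effects of 0.16 and 0.42 that did not pass. Among 4 tested prostanoid receptors Ptger2, a receptor for prostaglandin E2, fell with LPS by 1.61 (SE 0.31, limma adjusted p = 0.000796) and rose with TSA by 1.52 (SE 0.26, limma adjusted p = 0.000542). It read 3.44 with TSA + GW3965 + LPS against 0.952 with GW3965 + LPS, 1.94 with TSA + LPS against 0.504 with LPS, and 3.93 with TSA against 2.30 with No treatment.

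**Figure D5:**
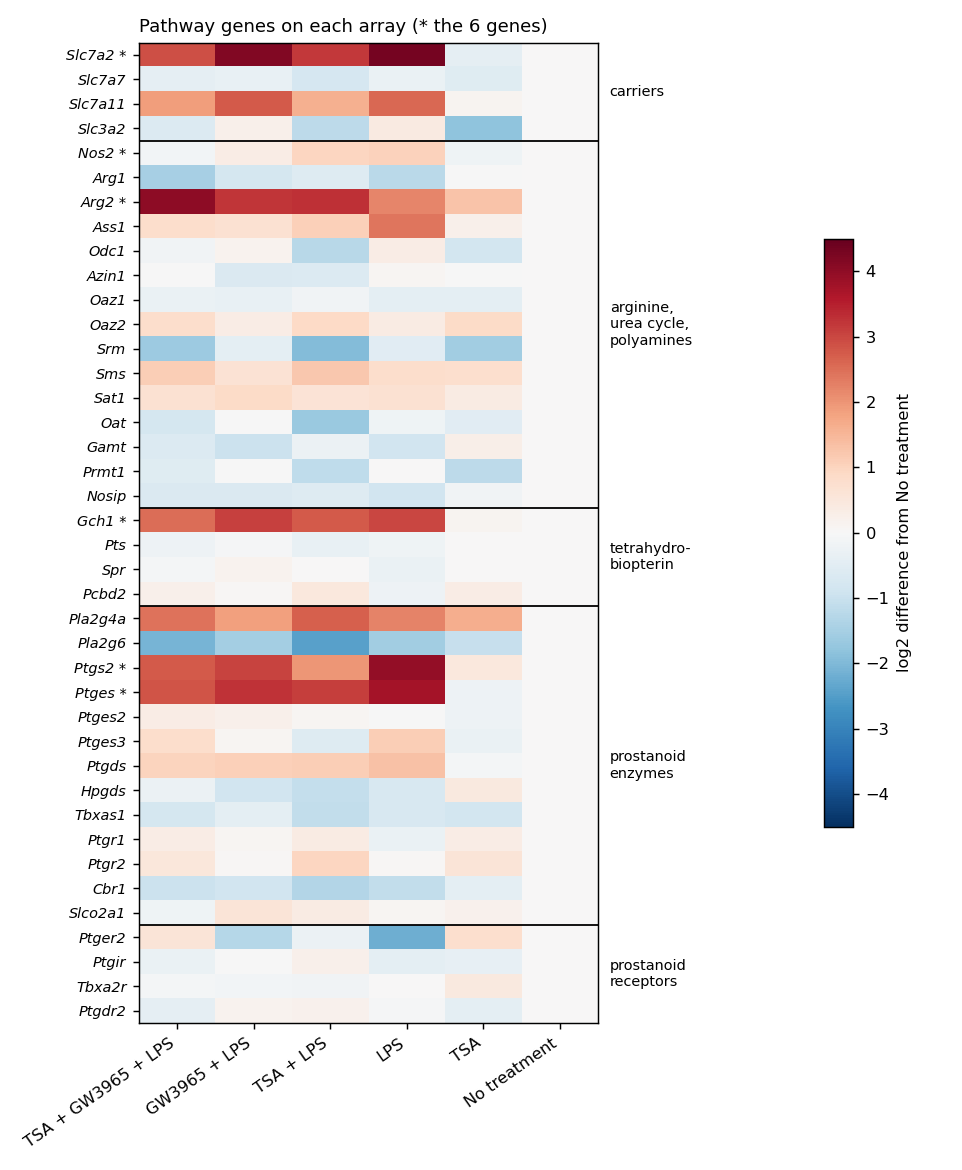
log2 difference from the No treatment array, in colour, for every tested gene of 5 pathway lists (rows, grouped; asterisks mark the 6 genes) on the 6 arrays (columns). Slc7a2, Gch1, Ptgs2 and Ptges are red on all 4 arrays with LPS, Arg2 and Pla2g4a are red on the TSA array as well, and Srm and Slc3a2 are blue on the TSA array.

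The leukotriene branch draws on the same arachidonic acid. Of its 5 tested genes 0 rose and 2 fell with LPS, and 2 rose and 0 fell with TSA, with medians of -0.32 for LPS and 0.61 for TSA. Over all genes tested 12.3% rose and 7.11% fell with LPS, and 11.0% rose and 7.54% fell with TSA. Ltc4s, the leukotriene C4 synthase, fell by 0.97 with LPS (limma adjusted p = 0.0154) and rose by 1.67 with TSA (SE 0.22, limma adjusted p = 6.72e-05, higher in 3 of 3 pairs). The cysteinyl leukotriene receptor gene Cysltr1 rose by 1.39 with TSA, and Lta4h, the leukotriene A4 hydrolase, fell by 2.11 with LPS.

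Of 15 tested transcription factors known to bind the Nos2 or Ptgs2 genes, 10 rose with LPS and 1 (Jun) fell, beside 12.3% and 7.11% of all genes, with a median effect of 1.07. This list, like the others here, was chosen with earlier results of these data known, so its counts are a description only. With TSA 0 rose and 3 fell, beside 11.0% and 7.54% of all genes: the NF-kB subunit gene Nfkb2 by 1.09, Irf8 by 0.99 and Atf3 by 1.18 (limma adjusted p = 0.00306, 0.0121 and 0.00424). Irf1, a factor that Nos2 induction depends on in mouse macrophages, rose with LPS by 2.31 and did not pass for TSA, at 0.30 (limma adjusted p = 0.348).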

How the data were processed

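Messenger RNA was measured on 6 single-colour arrays, 1 per group, with biotin-labelled cRNA made from 0.5 ug of total RNA, per the labels' protocols. The authors deposited 1 linear intensity per probe and array; the scanner, background correction and scaling are not given in the sources used here. Each array's median was close to 1 and 19 to 28 values per array lay at or below 0, as the deposited intensity table shows. Array numbers limit the precision.

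Probes were named from the platform's annotation: of 10076 probes 8983 had 1 symbol, 1 had several and 1092 had none. Several probes of a gene were read from the brightest. Values were floored at each array's 25th percentile and taken to log2. The fit (limma 3.58.1, R 4.3.3) used lmFit and eBayes with an intensity trend on 5080 genes at or above the array median on at least 1 array, with 2 residual and 16.9 prior degrees of freedom, two-sided. It was run on simulated data with the same spread for every gene and additive shifts. That run checks the code and says nothing on the calls made here. An added interaction term leaves 1 residual degree of freedom. The spread of each gene then came almost wholly from all genes tested, as it also did with 1 array left out. Fold changes of single pairs have no test of their own; neighbouring levels were set against a limit from the fit's residual spread. In a pair a gene counted as measured where the brighter array reached its median, and as changed at 2-fold.

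The 6 genes, the gene lists and the motifs were chosen with earlier results of these data known. Named genes are the 6, list members called for TSA or LPS, close counterparts of a member, and for each member the 3 genes with the highest r among those above the floor on at least 4 arrays. Of the macrophage, neutrophil, lymphocyte, mast cell and eosinophil, and fibroblast markers, 6, 9, 8, 9 and 8 were on the array. Alternatives varied scaling, floor, filter, probe averaging and trend, and left out each array. Promoters are RefSeq's (GRCm38.p6). Figures used matplotlib 3.10.9.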

Additional observations from a re-analysis of the deposited data

How the results depend on the processing

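Of 338 recomputed effects of the 6 genes 324 kept their direction and side of the threshold. Of 210 recomputed single-pair differences, 204 moved by less than the residual SD of that gene's fit. Whether these stayed on the same side of 2-fold was not compared. The cause of the exceptions was not tested unless stated. Leaving out 1 array, the TSA effect of Slc7a2 ran from -1.18 to -0.77, that of Ptgs2 from -1.13 to 0.0874, and the LPS effect of Nos2 from 0.98 to 1.25, and the number of the 6 genes called for TSA from 1 (without either array with GW3965) to 3 (without TSA or No treatment). With values floored at the array median the LPS effect of Ptgs2 was 0.92 and its log2 difference in TSA + LPS against TSA was -0.0067; its readings lie under that floor on 3 of the 6 arrays; over all genes 341 were then called for TSA (940 in the fit reported), 650 for LPS (987), 0 for GW3965 (4), 0 for TSA by LPS (12) and 0 for TSA by GW3965 (3). Without a filter 20 genes were called for GW3965. With genes at or above the median on all 6 arrays, where Ptgs2 and Ptges are not tested, 0 were called for TSA by LPS and 0 for TSA by GW3965. Leaving out 1 array gave 593 (without No treatment) to 1174 genes for LPS and 7 (without TSA + GW3965 + LPS) to 55 (without LPS or TSA + LPS) for GW3965. Uncalled values that changed sign when 1 array was left out were the GW3965 effects of Slc7a2 (-0.46 to 0.00886), Gch1 (-0.35 to 0.14) and Ptgs2 (-1.10 to 0.96). The TSA by LPS value of Nos2 was 0.0112 after quantile normalization and 0.00508 after cyclic loess. The interaction terms could not be refitted without an array, since no residual degree of freedom is left. Fits with 1 array left out also estimate the spread differently from the reported fit. A call gained or lost there thus cannot be laid to the array alone. The labels give no replicate numbers to block on; the reported fit already compares TSA within 3 matched backgrounds. Readings near background, as for Ptgs2 without LPS, limit what these arrays can resolve.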
